A study of Mus musculus with 6 samples.

Results

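The genes described here are 58 genes of DNA replication and nucleotide synthesis, taken from a list of gene symbols. The list was chosen with earlier results of these data known, and was read out of a table of 33084 mouse genes. All 58 matched a single Ensembl identifier in that table, and all 58 passed the filter on low counts that left 19403 genes for testing. The list covers the origin recognition complex, licensing factors, the Mcm2-7 helicase, helicase activators, polymerases and primase, the sliding clamp and its loader, single-strand binding, Okazaki fragment maturation, nucleotide synthesis, chromatin upkeep, uracil removal and fork protection. RNA was sequenced from forebrains of mouse embryos at 15.5 days post coitum, from 3 wt and 3 Dyrk1a+/- samples that the labels call biological replicates. The Dyrk1a+/- embryos come from a line in which a single copy of Dyrk1a, a protein kinase whose dosage affects brain growth, is inactive. Which exons were removed is not stated in the labels, which also give no background strain, and name no further allele or treatment in either group.

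DNA replication starts at origins, where the origin recognition complex, with Cdc6 and Cdt1, loads the Mcm2-7 ring on DNA in G1. In S phase the kinase Cdc7 with its partner Dbf4, and a set of loading factors, turn that ring into an active helicase by adding Cdc45 and GINS, and polymerases then copy both strands behind it. In the embryonic forebrain these steps take place in dividing progenitors along the ventricles, while the neurons they produce have left the cycle. Many of the genes are textbook targets of E2F transcription factors, which are released from pocket proteins when cells commit to S phase.

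E2F-type motifs were common in the promoters of these genes. The search was made in promoter sequences of RefSeq on GRCm38.p6, each running from 250 bases before to 50 bases after an annotated start. For 48 of the 58 genes such a window was at hand, 60 windows in all. The motifs were TTTCGCGC, TTTGGCGC, TTTCCCGC and TTTGCCGC, on both strands. A match was found for 18 of the 48 genes, 37.5%, against 2.6% of all 27025 genes with a window. Outside the 58, matches were found for 6 of 30 other replication fork and origin genes (20%). For other nucleotide synthesis genes they were found for 2 of 33 (6.06%). Windows of the 58 genes were richer in G and C, with a median of 60.7% against 52.7%, and the part of base composition in the motif count was not tested. The sequences below are the matches in genes of origin recognition, licensing, the helicase and its activators, shown because these genes act first and hold matches in every class. Each is 30 bases, 5′ to 3′ on the gene's strand, with the matched letters in capitals; overlapping matches on both strands run together.
Orc1, chr4:108579416-108579445, plus strand: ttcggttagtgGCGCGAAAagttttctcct
Orc3, chr4:34614965-34614994, minus strand: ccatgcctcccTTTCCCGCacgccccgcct
Cdc6, chr11:98908002-98908031, plus strand: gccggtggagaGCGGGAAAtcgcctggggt
Cdt1, chr8:122568035-122568064, plus strand: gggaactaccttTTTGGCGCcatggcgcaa
Mcm3, chr1:20820275-20820304, minus strand: aaacttccgtgGCGGGAAAacttgggaagt
Mcm5, chr8:75109345-75109374, plus strand: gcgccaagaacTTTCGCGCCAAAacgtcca
Mcm6, chr1:128359797-128359826, minus strand: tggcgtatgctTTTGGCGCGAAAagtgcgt
Mcm7, chr5:138171849-138171878, minus strand: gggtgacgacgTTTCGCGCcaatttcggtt
Gins3, chr8:95633507-95633536, plus strand: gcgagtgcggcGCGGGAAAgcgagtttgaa

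The match began 27 bases before the RefSeq start in Orc1, 41 in Orc3 and Gins3, 110 in Mcm6, 138 in Cdc6 and 153 in Mcm5. It lay just after the start in Cdt1, Mcm3 and Mcm7, from base 33, 20 and 17 of the transcript. Mcm3, Mcm6 and Mcm7 each held a further match elsewhere in the window. A different pair of motifs, TTTGAA and TTCGAA, the letters of the CHR element known from promoters of mitosis genes, was found for 10 of the 48 genes, 20.83%, close to the 21.66% of all genes. In 25 mitosis genes with a window the order was the other way round, with CHR letters in 21 and an E2F-type match in 2. The CCAAT box was found for 29 of the 48 genes, 60.42%, against 41.06% of all genes. The 18 genes with an E2F-type match had a median log2 fold change between genotypes of 0.27, and the 30 with a window but no match had 0.26.

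Levels are given as CPM, read counts scaled to a common library size after TMM normalisation. Dyrk1a itself, the gene altered in this line, stood at 177, 186 and 160 CPM in wt and at 149, 147 and 158 in Dyrk1a+/-. All 3 heterozygous libraries lay below all 3 wt libraries. On the log2 scale the difference was -0.20 (SE 0.0794; Benjamini-Hochberg adjusted p from edgeR = 0.59; exact 2-sided permutation p = 0.1, the smallest that 3 against 3 libraries allow), so the difference did not pass the test. Wt replicates 1, 2 and 3 held 32865708, 25270710 and 27861000 counts, and heterozygote replicates 1, 2 and 3 held 20682150, 25012356 and 18699434. Every wt library thus held more counts than every heterozygous library. The part of depth in the differences between genotypes was not tested. Wt replicate 3 and heterozygote replicate 2 stood apart by non-coding RNAs (7SK, RNase P and RNase MRP RNA), at 4.46% and 4% of counts against 2.57% to 3.01% in the other 4, and results are also given within that pair and within the other 4. Forebrain markers were present, among them Emx1 at 20.2 to 34.2 CPM and Dlx1 at 82.2 to 108 CPM. Of 8 genes listed for hindbrain and spinal cord, 7 were among the genes counted, all but Hoxc6. Of these, 5 Hox genes reached at most 0.16 CPM. Hoxb2 was at 0 in all libraries, Hoxa2 in 5, Hoxb3 in 4, Hoxb4 in 3 and Hoxd8 in 1. En2 was at 0.153 to 0.912 CPM and Gbx2 at 5.92 to 9.82 CPM. The cells that hold Gbx2 RNA were not determined, so its level is not read as hindbrain tissue.

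All 58 replication and nucleotide synthesis genes were higher in the Dyrk1a+/- forebrain, by small amounts. The fold ran from 1.03 for Gins4 to 1.52 for Orc1, with a median log2 fold change of 0.26, against 0.005 over all 19403 genes tested, of which 51.2% were higher. At 48 genes the fold was 1.1 or more, at 29 it was 1.2 or more, and at 5 it was 1.3 or more: Orc1, Cdt1, Ticrr, Rrm2 and Ung. None passed the test over all genes: by edgeR 0 of 58 had an adjusted p under 0.05 (lowest 0.483), where 0.0103% of all genes did, and by DESeq2 0 (lowest 0.175), where 0.17% did. At an unadjusted edgeR p under 0.05 there were 36 of 58, 62.1%, all higher, where 3.27% of all genes passed as higher and 4.61% as lower. All 3 heterozygous libraries lay above all 3 wt libraries in 34 of 58, 58.6%, where this held for 6.53% of all genes, with 7.49% of genes showing the opposite. In this bulk tissue more cells in S phase and more RNA per such cell cannot be told apart.

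**Figure D1:**
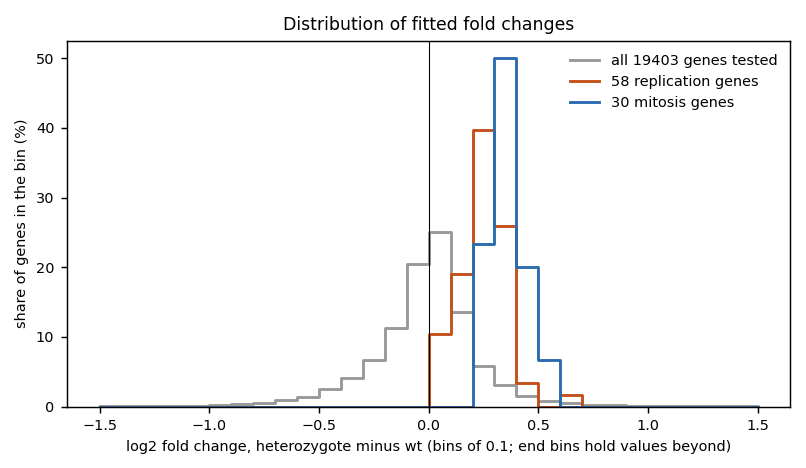
Share of genes (%) by log2 fold change, Dyrk1a+/- minus wt, in bins of 0.1, for all 19403 genes tested, the 58 replication and nucleotide synthesis genes and 30 mitosis genes. All genes centre on 0, while all 58 and all 30 lie to the right of it, with medians of 0.26 and 0.35. Both lists were chosen with earlier results of these data known.

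The count at an unadjusted p under 0.05 depended on 2 libraries: it was 14 without wt replicate 1 and 13 without heterozygote replicate 3, against 24 to 40 without any of the other 4. The share of all genes that were higher at that p also dropped, from 3.27% to 1.58% in both cases. Wt replicate 1, the library with the most counts, was the lowest of all 6 libraries in 39 of the 58 genes. Heterozygote replicate 3, the library with the fewest counts, was the highest in 36. With either left out, 57 and 56 genes were still higher, with median log2 fold changes of 0.22 and 0.20. Leaving out a single library moved the log2 fold change by over 1.5 times in 20 of the 58: Orc2, Orc3, Orc4, Orc5, Cdc6, Mcm2, Cdc7, Gins3, Gins4, Ticrr, Pola2, Pold2, Pole2, Pcna, Rfc2, Rfc4, Rpa1, Lig1, Dnmt1 and Clspn. Within the pair of libraries rich in 7SK RNA 54 genes were higher and 4 lower in the heterozygote (median difference 0.19 on the log2 CPM scale), and within the other 4 libraries all 58 were higher (median 0.29). Among those 4 libraries, a comparison of 2 against 2 in which groups separate far more readily, 55 of 58 genes lay higher without overlap, where 23% of all genes did.

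**Figure D2:**
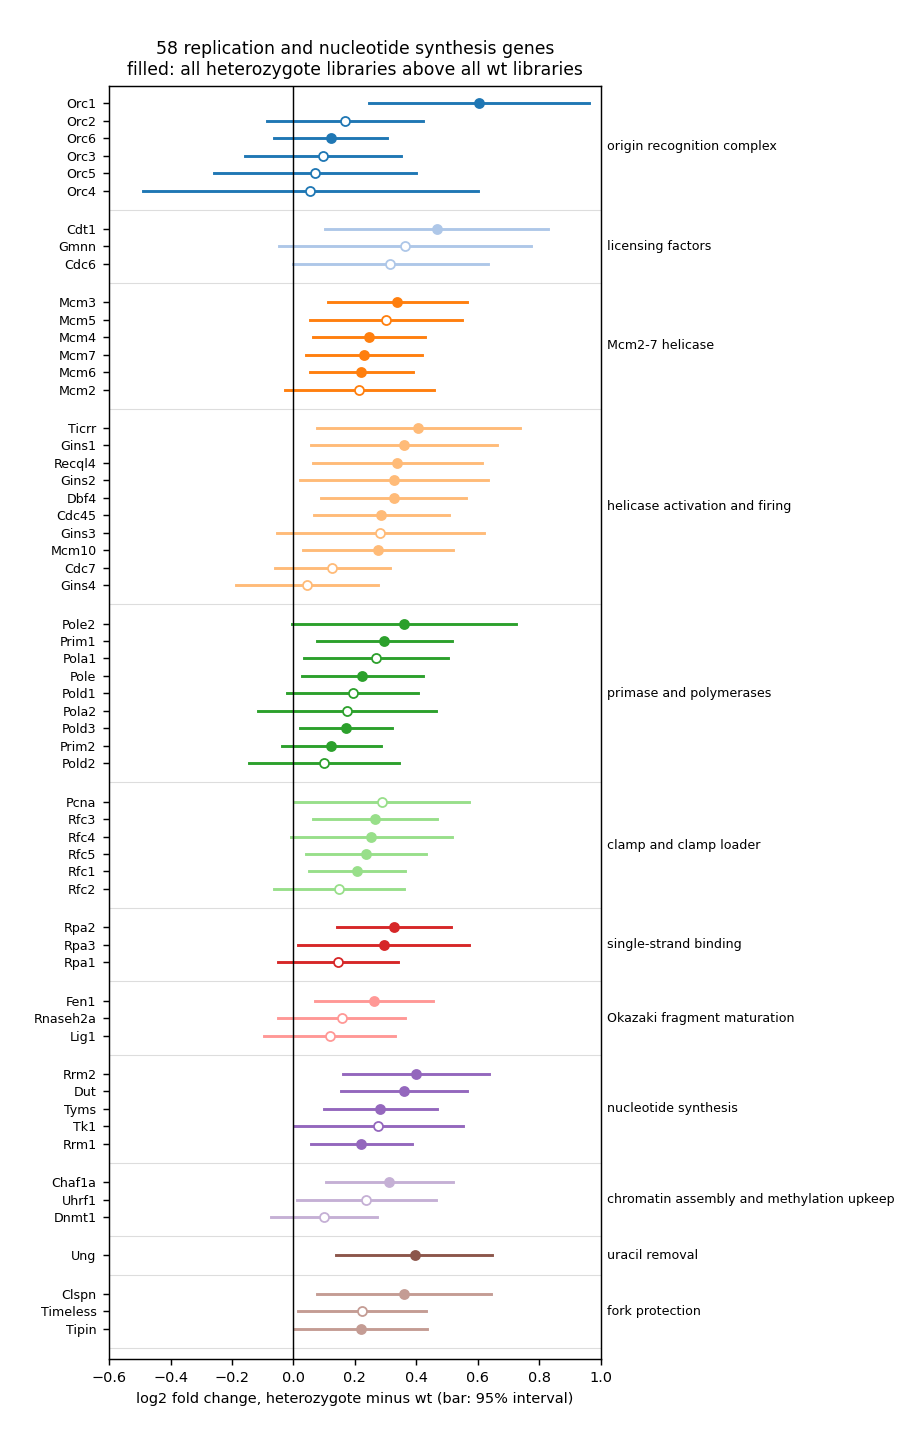
Log2 fold change (Dyrk1a+/- minus wt, x axis) of each of the 58 genes, by class, with its 95% interval from edgeR; filled points are genes whose 3 heterozygous libraries all lie above the 3 wt libraries. All points lie above 0, from 0.05 for Gins4 to 0.60 for Orc1. The intervals are not adjusted for the number of genes tested, and those of 36 genes lie wholly above 0. Of all genes 3.27% were higher at an unadjusted edgeR p under 0.05. By edgeR 0 of the 58 had an adjusted p under 0.05 (lowest 0.483).

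Origin recognition was uneven. Orc1 (chromosome 4, 108579423 to 108614833), the largest subunit of the complex and the one that cycles in mammalian cells, stood at 3.33, 3.05 and 3.73 CPM in wt and at 4.59, 5.03 and 5.76 in Dyrk1a+/-. Every heterozygous library lay above every wt library, a log2 fold change of 0.60 (SE 0.158, 95% interval 0.245 to 0.961; edgeR adjusted p = 0.483). Orc2 to Orc6 had log2 fold changes of 0.06 to 0.17. Of these, Orc6 had no overlap (27.2, 27.9 and 30.1 against 30.1, 30.7 and 31.7 CPM, a gap smaller than the last digit shown). Orc4 followed the pair of libraries and not the genotype: it was at 80.2 and 81.7 CPM in wt replicates 1 and 2 and at 84.1 and 82.3 in heterozygote replicates 1 and 3, but at 46.6 in wt replicate 3 and 50.6 in heterozygote replicate 2. Leaving out single libraries moved Orc4 from -0.17 to 0.26 and Orc5 from -0.04 to 0.21, so neither has a settled direction.

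All 3 licensing factors were higher. Cdt1 (chromosome 8, 122568015 to 122573554), the loading factor that is destroyed once S phase begins, stood at 6.01, 6.35 and 5.48 CPM in wt and at 6.57, 8.53 and 9.55 in Dyrk1a+/-. The groups did not overlap, although heterozygote replicate 1 lay close to the wt libraries (log2 fold change 0.47, SE 0.16; edgeR adjusted p = 0.543). Cdc6, the ATPase that recruits Cdt1 and the Mcm ring, was at 9.64, 11.1 and 11.7 against 13.2, 11.6 and 15.6 CPM (0.32), and within the pair of libraries it did not differ by genotype (-0.006). Geminin, Gmnn, the inhibitor of Cdt1, was at 5.58, 6.19 and 8.06 against 6.91, 9.26 and 9.34 CPM (0.36). Both overlapped between genotypes. The ratio of Cdt1 to Gmnn, per length of exon, was 0.317 to 0.502 in wt and 0.43 to 0.477 in Dyrk1a+/-, with overlap; it was higher in the heterozygote within the pair of libraries and not among the other 4.

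The subunits of the Mcm2-7 ring, the helicase that unwinds DNA at the fork, moved within a narrow band. Their log2 fold changes were 0.21 to 0.34, and 5 of 6 were at an unadjusted p under 0.05, where 3.27% of all genes were higher. Mcm3 (chromosome 1, 20802968 to 20820312) led, with 49.6, 53.6 and 57.7 CPM in wt and 60, 68.3 and 75.3 in Dyrk1a+/- (0.34, SE 0.0997; edgeR adjusted p = 0.503). Mcm4 stood at 42, 44.1 and 42.9 against 47.2, 50.8 and 55 CPM, and Mcm6 at 81, 85.8 and 90.8 against 95.4, 103 and 102. In these 3 and in Mcm7 no heterozygous library reached down to the wt range. Mcm5 and Mcm2 overlapped: wt replicate 3, at 77.9 and 87.4 CPM, lay above heterozygote replicate 1, at 74.8 and 80.8. Mcm2, at 0.21 (SE 0.107), was the member of the ring with the highest p.

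Of the 10 genes that activate the loaded helicase, 7 were at an unadjusted p under 0.05 and had no overlap. Among all genes tested 3.27% were higher at that p and 6.53% were higher without overlap. Dbf4 (chromosome 5, 8396973 to 8422716), the regulatory partner of the Cdc7 kinase, was at 31.8, 32.5 and 29.1 CPM in wt and at 39.3, 34.3 and 43.7 in Dyrk1a+/- (log2 fold change 0.33, SE 0.104; edgeR adjusted p = 0.526). Its kinase, Cdc7, overlapped between genotypes, with means of 48.1 ± 4.02 and 52.6 ± 1.34 CPM (SD, n = 3 per genotype) and a log2 fold change of 0.13. The test did not compare partner with kinase. Cdc45, which joins the active helicase, stood at 13.9, 14.5 and 14.9 against 16.6, 18.3 and 17.9 CPM, without overlap (0.29, SE 0.0971). Recql4, a RecQ-family helicase needed to start forks, was at 7.41, 7.85 and 8.42 against 9.18, 9.94 and 10.8 CPM (0.34). Ticrr, which helps bring Cdc45 to origins, had a larger mean difference that rested partly on a single library: 19.2, 20 and 20.2 CPM in wt against 21.5, 24.5 and 32.7, and its log2 fold change of 0.41 was 0.22 without heterozygote replicate 3.

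GINS, the 4-subunit partner of Cdc45 and Mcm2-7, was not uniform. Gins1 was at 8.36, 10.7 and 10.7 CPM in wt and at 12, 12.4 and 13.8 in Dyrk1a+/- (log2 fold change 0.36), and Gins2 at 8.15, 9.72 and 10.2 against 11.6, 13 and 10.5 (0.33). Gins3 overlapped (0.28), as did Gins4, at 19.2, 19.7 and 22.9 against 22.1, 20.9 and 20.7 CPM. For Gins4 the log2 fold change was 0.05 (SE 0.102), the smallest of all 58, and -0.01 without wt replicate 1. Mcm10, a scaffold of the starting fork, was at 0.27 (SE 0.108) with no overlap.

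**Figure D3:**
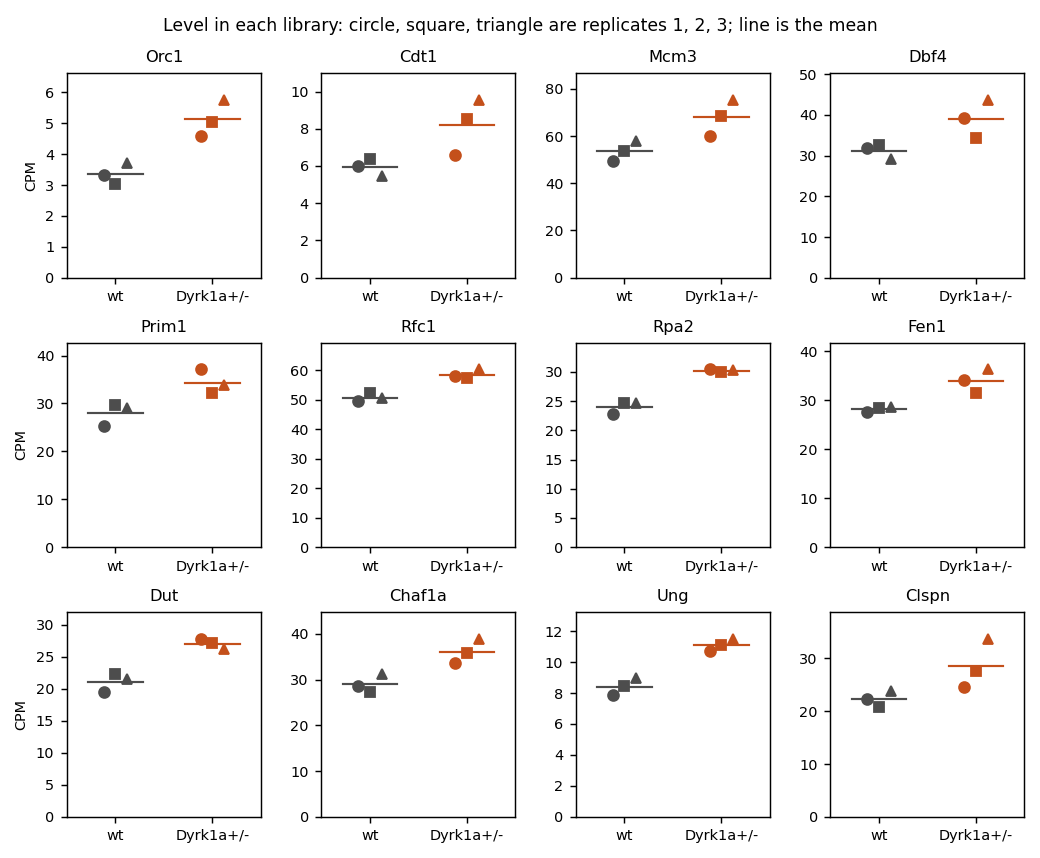
CPM (y axis, from 0) in each library for the gene of lowest unadjusted p in each of the 12 classes, wt beside Dyrk1a+/-; symbols mark replicates 1 to 3 and the line is the mean. Choice by lowest p favours genes whose genotypes separate. In all 12 the heterozygous points lie above the wt points, which holds for 34 of the 58 and for 6.53% of all genes. The gap, relative to the level, is widest in Orc1. It is narrowest in Cdt1 and Clspn, where heterozygote replicate 1 sits next to the wt range.

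Among primase and polymerase genes the primase subunit Prim1 had the lowest p, and 4 of 9 genes were at an unadjusted p under 0.05. The share of all genes higher at that p was 3.27%. Prim1 (chromosome 10, 128015168 to 128030037), which makes the RNA primers, was at 25.3, 29.6 and 29 CPM in wt and at 37.1, 32.1 and 33.8 in Dyrk1a+/- (log2 fold change 0.30, SE 0.0971; edgeR adjusted p = 0.526). Its partner Prim2 differed less, at 36.2, 37 and 37.5 against 40.6, 40.4 and 39.5 CPM, a log2 fold change of 0.12 with no overlap. Pola1, the catalytic subunit of the primer-extending polymerase alpha, was at 62.7, 73 and 59.2 against 80.4, 69.9 and 84.5 CPM (0.27), and wt replicate 2 overlapped heterozygote replicate 2. Of the leading-strand polymerase epsilon, the catalytic subunit gene Pole was at 0.22 and Pole2 at 0.36, both without overlap. Polymerase delta, which copies the lagging strand, had Pold3 at 0.17 (SE 0.0666), Pold1 at 0.19 and Pold2 at 0.10. Pold2 was the gene of highest p in this class, with means of 24.6 ± 2.85 and 26.4 ± 1.76 CPM (SD, n = 3 per genotype).

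The clamp and its loader differed by log2 fold changes of 0.15 to 0.29. Rfc1, the large loader subunit, stood at 49.6, 52.2 and 50.5 CPM in wt and at 58, 57.4 and 60.3 in Dyrk1a+/-, tight groups with a clear gap (0.21, SE 0.0684; edgeR adjusted p = 0.528). Rfc3 was at 28.9, 29.8 and 28.9 against 32.2, 34.6 and 38.5 CPM, and Rfc5 at 21.9, 23.8 and 24.1 against 28, 26.3 and 28. Rfc2 overlapped, at 0.15. Pcna, the ring that tethers the polymerases, had a log2 fold change of 0.29 (SE 0.125), which was 0.17 without wt replicate 1, and a wide spread: 45.5, 58.9 and 60.5 against 58.5, 71.8 and 71 CPM, in which wt replicate 1 and heterozygote replicate 1 were each low in their group.

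Rpa2, the middle subunit of the single-strand binding protein RPA and a substrate of cell cycle kinases, had the lowest unadjusted p of the 58. Rpa2 (chromosome 4, 132768332 to 132778752) stood at 22.8, 24.6 and 24.7 CPM in wt and at 30.4, 29.9 and 30.3 in Dyrk1a+/-. The heterozygous libraries hardly differed among themselves (SD 0.28 CPM), and the genotypes differed by a log2 fold change of 0.33 (SE 0.0813, 95% interval 0.143 to 0.512; edgeR adjusted p = 0.483). Leaving out single libraries moved it from 0.29 to 0.35. Rpa3 was at 9.89, 12.1 and 10.6 against 14.2, 12.1 and 13.6 CPM (0.29), where the highest wt and the lowest heterozygous values are the same to the last digit shown. Rpa1, the large subunit, was at 60.3, 65.4 and 73 against 69.8, 73.3 and 76.5 CPM, with overlap (0.14).

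Of the 3 genes that finish Okazaki fragments, the flap endonuclease Fen1 stood apart by genotype. Fen1 was at 27.6, 28.5 and 28.7 CPM in wt and at 34.1, 31.4 and 36.3 in Dyrk1a+/- (log2 fold change 0.26, SE 0.0848; edgeR adjusted p = 0.526). Rnaseh2a, the catalytic subunit of the enzyme that removes RNA from primers, was at 25.5, 24.7 and 28.8 against 29.1, 30.5 and 28.5 CPM (0.16). DNA ligase 1, Lig1, was at 59.2, 54.6 and 57 against 53.7, 66.6 and 65 CPM, so its lowest value was in a heterozygous library (0.12).

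Nucleotide synthesis was the class of several genes in which every one was at an unadjusted p under 0.05, as were all 3 fork protection genes. At that p 3.27% of all genes were higher. Dut (chromosome 2, 125247190 to 125258608), the dUTPase that keeps uracil out of DNA and feeds thymidylate synthesis, stood at 19.5, 22.3 and 21.5 CPM in wt and at 27.8, 27.2 and 26.2 in Dyrk1a+/-. Its groups were separated by more than the spread within either (log2 fold change 0.36, SE 0.0903; edgeR adjusted p = 0.483). Rrm2 (chromosome 12, 24708241 to 24714146), the S-phase subunit of ribonucleotide reductase, was at 35.3, 33.3 and 34.5 against 39, 45.8 and 51.3 CPM (0.40, SE 0.104), and the heterozygous libraries spread far more than the wt ones. Rrm1, the large subunit, was steady in wt at 113, 113 and 114 CPM and stood at 123, 133 and 140 in Dyrk1a+/- (0.22, SE 0.0725). The ratio of Rrm2 to Rrm1, per length of exon, was 1.24, 1.18 and 1.2 in wt and 1.26, 1.36 and 1.46 in Dyrk1a+/-, so the small subunit was further up than the large one in all 3 heterozygous libraries, by little in replicate 1. Which subunit has the higher level depends on the length taken, since with the longest transcripts Rrm1 (20.7 CPM per kb) lay above Rrm2 (15.7 CPM per kb) in wt. Thymidylate synthase, Tyms, was at 33.4, 37.1 and 35.5 against 43.4, 40.5 and 45.1 CPM (0.28). Thymidine kinase, Tk1, was at 17.7, 19.3 and 23.4 against 22.5, 25.1 and 25.5 CPM (0.28), with wt replicate 3 above heterozygote replicate 1.

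Uracil removal and chromatin upkeep behind the fork followed. Ung, the glycosylase that cuts uracil from DNA, was at 7.87, 8.45 and 8.95 CPM in wt and at 10.7, 11.1 and 11.5 in Dyrk1a+/-, without overlap (log2 fold change 0.39, SE 0.112; edgeR adjusted p = 0.502). Chaf1a, the large subunit of the histone chaperone CAF-1, was at 28.6, 27.4 and 31.3 against 33.6, 35.9 and 38.9 CPM (0.31, SE 0.0913). Uhrf1, which reads hemimethylated DNA, was at 70.4, 72.9 and 83.1 against 78.5, 91.5 and 96.9 CPM (0.24). Dnmt1, the maintenance methyltransferase it recruits and the most highly counted of the 58, was at 255, 252 and 283 against 271, 292 and 283 CPM, with overlap (0.10). Of the fork protection genes, claspin (Clspn), the adaptor for checkpoint kinase 1, was at 22.3, 20.8 and 23.8 against 24.6, 27.6 and 33.7 CPM (0.36, SE 0.125), and its log2 fold change was 0.23 without heterozygote replicate 3. Its partners Timeless and Tipin were both at 0.22, Tipin without overlap and Timeless with overlap, since wt replicate 3, at 35.7, lay just above heterozygote replicate 1, at 35.6 CPM.

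Levels can be compared between genes only per length, here as CPM per kb of annotated exon. In wt forebrain the 58 genes spanned 36.9-fold on this scale, from Dnmt1 at 35.7 ± 2.32 to Orc1 at 0.968 ± 0.097 (SD, n = 3), with a median of 8.06. Mcm7 followed Dnmt1 at 32.5 ± 2.36, and within the ring Mcm6 (18.4), Mcm5 (17.7), Mcm3 (14.3), Mcm4 (12) and Mcm2 (11.3) came after it. Mcm6 and Mcm5 could not be separated by their wt ranges, nor could Mcm4 and Mcm2. The place of Mcm2 depends on the length taken: with its longest transcript, of 3494 bases in place of 6956, it stood at 22.5, next after Mcm7 at 48.6, which then also passed Dnmt1 at 44.9. Mcm7 hosts microRNA genes and shares exon bases with Ap4m1 and Cops6 on the other strand, so its lead carries that caution. In the origin recognition complex the order was Orc3 (13.3), Orc6 (11.5), Orc2 (9.43), Orc4 (9.32), Orc5 (4.26) and Orc1, and the Orc1 range lay below that of every other subunit in either genotype. The ratio of Orc1 to the mean of Orc2 to Orc6 was 0.0852 to 0.128 in wt and 0.12 to 0.161 in Dyrk1a+/-, overlapping by 1 library of each genotype.

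**Figure D4:**
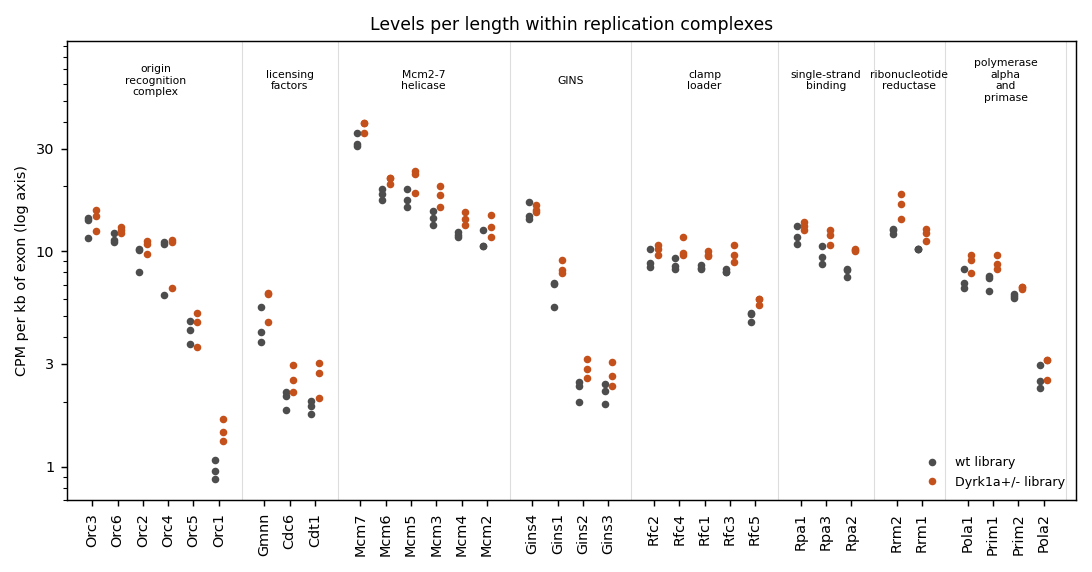
CPM per kb of exon (log axis) of the genes of 8 complexes or partnerships in each wt and Dyrk1a+/- library. Mcm7 is highest of the Mcm ring and Orc1 lowest of the origin recognition complex in both genotypes, and most pairs of wt and heterozygous points shift upwards by a small amount beside the distances between genes.

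Gins4, at 15.3, lay above Gins1 at 6.56 and above Gins2 and Gins3, at 2.28 and 2.21, which could not be separated. The 5 loader subunits were closer together, with Rfc2, Rfc4, Rfc1 and Rfc3 at 8.09 to 9.19, neighbours overlapping, and Rfc5 below them at 4.98. In RPA the order was Rpa1 (11.9), Rpa3 (9.56) and Rpa2 (8.04), but with the longest transcript as the length Rpa1 came last, at 13 against 15.9 for Rpa3 and 13.3 for Rpa2. Cdt1 and Cdc6, at 1.89 and 2.07, lay below the Cdt1 inhibitor Gmnn, at 4.51, and below their cargo, the Mcm genes. The ratio of Cdc6 to the mean of Mcm2 to Mcm7 was 0.11 to 0.123 in wt and 0.103 to 0.132 in Dyrk1a+/-. Of 48 pairs of partners whose wt ranges did not overlap, 36 kept their order without overlap when the longest transcript was used as the length. The 29 genes of lower level had a median log2 fold change of 0.30 and the 29 of higher level 0.22; counting noise is larger for the lower ones.

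Genes of the same pathway outside the 58 had smaller median differences, a contrast between lists that was not tested. Of 34 other fork and origin genes, 33 were higher, and the median over all 34 was 0.15 on the log2 scale. Of these 3 were at an unadjusted p under 0.05, 7 had no overlap and 0 passed edgeR or DESeq2. Shares over all genes were 3.27% higher at that p and 6.53% higher without overlap. The 3 were Wdhd1, a scaffold that ties polymerase alpha to the helicase (35.1 ± 2.1 against 44.5 ± 2.85 CPM, log2 fold change 0.34), the annealing helicase Zranb3 (0.33) and the nuclease Dna2 (0.32). The single lower gene was Pold4, the small subunit of polymerase delta, at -0.26 (SE 0.155), with overlap. Some remaining subunits of the complexes above were picked after their values were seen. Chaf1b of CAF-1, at 0.17, overlapped between genotypes, while Rbbp4 of CAF-1, at 0.15, was higher without overlap. Pole3 and Pole4 of polymerase epsilon, at 0.11 and 0.06, and Rnaseh2b and Rnaseh2c, at 0.09 and 0.07, overlapped.

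The other genes of nucleotide synthesis went both ways. Of 36 tested, 20 were higher and 16 lower, and the median log2 fold change was 0.009, close to the 0.005 of all genes, and 0 passed edgeR or DESeq2. At an unadjusted p under 0.05 there were 5, all higher and none overlapping, where 3.27% of all genes were higher at that p. Among the 5 were Umps of pyrimidine synthesis (39.4 ± 1.07 against 44.9 ± 1.35 CPM, log2 fold change 0.19) and Paics and Adsl of purine synthesis (0.19 each). The mitochondrial serine hydroxymethyltransferase Shmt2 (0.21) was another. Counterparts of the 58 that serve outside S phase were picked after their values were seen. Rrm2b, the p53-inducible small subunit of ribonucleotide reductase, was at 15.4 ± 1.34 against 14.1 ± 2.64 CPM (SD, n = 3 per genotype), a log2 fold change of -0.14 (SE 0.151), where Rrm2 was at 0.40. The mitochondrial thymidine kinase Tk2 was at -0.12 (SE 0.0856), where Tk1 was at 0.28. The differences between these genes were not tested.

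The libraries ranked in the same way for replication genes as for mitosis genes. As the mean log2 CPM of the 58 relative to their mean over 6 libraries, wt replicates 1, 2 and 3 were at -0.19, -0.10 and -0.08, and heterozygote replicates 1, 2 and 3 at 0.06, 0.10 and 0.21. The 30 mitosis genes were at -0.26, -0.14 and -0.13 in wt and at 0.05, 0.14 and 0.35 in Dyrk1a+/-, with the same library lowest and the same library highest. The mitosis list, like the 58, was chosen with earlier results of these data known. All 30 were higher, 29 at an unadjusted p under 0.05, with a median log2 fold change of 0.35. They were led by the spindle factor Tpx2, the checkpoint kinase Ttk and the kinetochore protein Cenpf. Of all genes 3.27% were higher at an unadjusted p under 0.05. By DESeq2 4 of the 30 passed and by edgeR 0, where 0.17% and 0.0103% of all genes did.

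**Figure D5:**
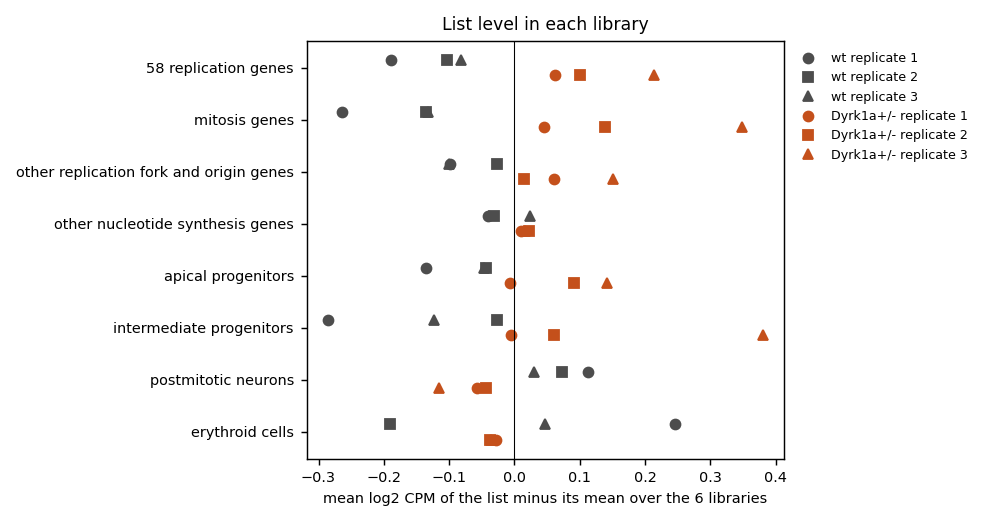
Mean log2 CPM of each gene list relative to its mean over the 6 libraries (x axis), with wt and Dyrk1a+/- libraries marked by replicate. For the 58 replication genes and the mitosis genes all heterozygous libraries lie right of all wt libraries, heterozygote replicate 3 farthest, at 0.21 and 0.35; neuron genes lie the other way.

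Markers of intermediate progenitors were all higher in the heterozygote, those of apical progenitors went both ways, and neuron markers were mostly lower. Intermediate progenitor markers were higher in 10 of 10 cases, none past the adjusted test (lowest edgeR adjusted p = 0.495), with a summed level of 448 to 483 CPM in wt and 503 to 590 in Dyrk1a+/-, and heterozygote replicate 3 was again the highest. Of 12 apical progenitor markers 8 were higher, where 51.2% of all genes were. The 4 others were Slc1a3, lower without overlap (160, 154 and 151 against 138, 148 and 120 CPM), and Hopx, Fabp7 and Ddah1, with overlap. Sums of the apical markers overlapped, at 1160 to 1290 and 1210 to 1340 CPM. Their mean log2 levels did not overlap, at -0.135 to -0.044 in wt and -0.007 to 0.141 in Dyrk1a+/-. Those of intermediate progenitors did not overlap either, at -0.285 to -0.027 and -0.005 to 0.38. Of 12 markers of postmitotic neurons 11 were lower, with sums of 7680 to 8240 and 7050 to 7420 CPM. Markers of other dividing or non-neural cells were mostly lower. Meningeal markers were lower in 7 of 9 cases (489 to 572 against 412 to 458 CPM) and oligodendrocyte precursor markers in 5 of 6 (138 to 146 against 96.5 to 121). Vascular markers were lower in 7 of 8 (311 to 332 against 274 to 311) and microglial markers in 7 of 8 (52.4 to 56.5 against 45.2 to 53.7). Of the meningeal markers 1 passed an adjusted p under 0.05 by edgeR and 1 by DESeq2, where 0.0103% and 0.17% of all genes did. In the other 3 of these lists 0 passed by either. Erythroid markers were lower in 6 of 7 cases, with sums of 740 to 938 and 574 to 736 CPM, although their mean log2 levels overlapped between genotypes. The exception was the embryonic globin Hbb-y, named after its values were seen, at 4.49, 6.54 and 9.53 against 21.5, 22.8 and 82.5 CPM (edgeR adjusted p = 0.483). No gene of these lists was at 0 in any library. The part of cell makeup in the values of the 58 genes was not tested.

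Exons of 22 of the 58 genes overlap those of another annotated gene, and the setting used for strand when reads were counted is not given in the sources used here. The overlap covers 25% or more of the exon bases in 4: Fen1 (with Gm10143), Gins2 (with Gse1), Chaf1a (with Ubxn6) and Orc2 (with Nif3l1), all on the opposite strand. Pcna has a processed copy, Pcna-ps2, with 868 counts over all libraries beside 8993 for Pcna, so reads may be split between them. The 36 genes with no such overlap had a median log2 fold change of 0.27, with 24 at an unadjusted p under 0.05. Among all genes tested 3.27% were higher at that p.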

How the data were processed

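Single-end reads from 3 wt and 3 Dyrk1a+/- forebrains were counted per gene by the authors, and the deposited values are raw counts. Per the submitters' processing notes the tools were bcl2fastq 2.17.1.14, HISAT2, SAMtools 1.9 and HTSeq 0.9.1, with build GRCm38 (mm10). Neither the gene annotation used nor HTSeq's strand option is given in the sources used here. The labels name polyA RNA as the molecule and a stranded total RNA kit with ribosomal depletion for the libraries. They do not tie replicates to animals or litters, so p-values measure the spread between these samples.

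Of 33084 identifiers, 32888 took a symbol from GENCODE M21. Genes passing edgeR's filterByExpr (19403) were fitted by genotype with edgeR 4.0.16 (quasi-likelihood, TMM, Benjamini-Hochberg, threshold 0.05; R 4.3.3), after a test on simulated data. DESeq2 1.42.0, limma-voom (limma 3.58.1), a replicate block, size factors, no filter, other library sizes and omitted libraries were alternatives. Total counts ran from 18699434 to 32865708 per library, and the 58 genes held 618 to 40779 counts each, which limits the precision of the lowest. Library scores used log2 CPM with a prior count of 2. Intervals are 95%.

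The 58 genes, their classes and all other lists were chosen with earlier results of these data known. Genes were named by a rule: in each class the 3 of lowest p and the 1 of highest, all members of complexes ordered by level, and the 3 of lowest p in other lists; further genes are said to be picked later or are given as remaining members. A planned search of protein motifs was not run, and protein sequences are not used here. Values of some single genes in the other lists are not reported here.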

Additional observations from a re-analysis of the deposited data

How the results depend on the processing

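No gene of the 58 passed an adjusted p under 0.05 in any alternative run, in 870 combinations of gene and setting, and the lowest adjusted p was 0.111. The direction was kept in 864 of these and 55 genes were higher in every one. The exceptions were Orc4, Orc5 and Gins4, which ran from -0.1655 to 0.2595, from -0.0423 to 0.2091 and from -0.0051 to 0.129 on the log2 scale when single libraries were left out. Over all genes 2 passed by edgeR, against 27 by the DESeq2 test, 4 with no low-count filter, 6 with a term for the pair rich in 7SK RNA, 6 without that pair and 0 to 5 without single libraries. Deviations from the genotype mean correlated at 0.201, -0.325 and -0.165 between same-numbered samples, and at 0.452 between wt replicate 3 and heterozygote replicate 2. Deviations from a mean of 3 libraries are tied to one another, and the labels name no pairing. Whether the numbers pair the samples was therefore not settled. With the replicate block 0 genes passed over all genes, and 29 of the 58 were at an unadjusted p under 0.05, against 36 without it and 13 to 40 without single libraries. The count over all genes moved from 1528 to 1110 with the block and to 812 to 2072 without single libraries, not always in the same direction. Without heterozygote replicate 2 it rose to 1766 while the count among the 58 fell to 27. Without heterozygote replicate 1 the 2 counts were 1584 and 34. Genes without overlap numbered 34, 55 without the pair and 32 to 50 without single libraries, where 6.53%, 23% and 8.99% to 14.8% of all genes were higher without overlap. The median log2 fold change of the 58 was 0.25 to 0.29 across fits of all libraries or without the pair, and 0.20 to 0.28 without single libraries. By class, the median without single libraries ran from 0.03 to 0.22 for origin recognition and from 0.25 to 0.49 for licensing factors (0.47 without the pair), and it reached 0.37 for nucleotide synthesis (also 0.37 without the pair), 0.25 for polymerases, 0.23 for Okazaki fragment maturation and 0.04 for the other nucleotide genes. E2F-type matches fell from 18 to 8 of 48 genes when only the 150 bases before the start were searched, which is fewer bases. In that shorter stretch 16.67% of the 48 genes had a match, against 1.44% of all genes with a window. Where no construction of the setting accounts for a change, the cause was not tested.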
